A study of Mus musculus with 30 samples.

Results

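The change in gene expression between 48 and 60 h of 2i/LIF withdrawal was described from RNA-seq of polyadenylated RNA of mouse secondary induced pluripotent stem cells (iPSCs). The members are the genes with at least 1 FPKM (fragments per kilobase, scaled to library size) at 48 h or at 60 h, which were 12610 of the 22477 genes measured. A member was counted as risen or fallen when its values at 60 and 48 h were 2-fold or more apart, with nothing added to either, and "rose" and "fell" are used below only for such genes. These timepoints account for 4 of the 30 samples of the series, 2 at each timepoint, and the deposited values combine both replicates into 1 value per gene. No spread between replicates, test or p-value can therefore be given for any difference, and the read depth of single values is unknown. Low values carry the larger error, and the share of genes past the threshold was far higher among them, as described below.

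The cells at 48 and 60 h have the same genotype and treatment, and the labelled difference between them is the time since withdrawal. Whether the cells were grown, or the libraries prepared, together is not stated. They carry transgenes for the reprogramming factors Oct4, Sox2, Klf4 and c-Myc (OSKM) that doxycycline (dox) switches on, GFP in place of 1 Nanog allele, and a constitutive nuclear RFP, and neither group received dox. They had been grown on a feeder layer of mouse embryonic fibroblasts in serum/LIF, exposed to 2i/LIF for 24 h and switched to N2B27 medium. For the colony-forming assay, the paper's methods add a step on gelatin-coated plates in 2i/LIF before withdrawal. Whether the cells for RNA-seq were on gelatin is not stated. Since GFP replaces 1 of the Nanog alleles, the Nanog values come from cells with 1 intact copy. The study used the time course to look for expression changes at the point where OSKM no longer returns the cells efficiently to pluripotency, and the comparison covers 1 step of it.

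The 2i inhibitors block Mek and Gsk3 and, together with LIF, hold mouse pluripotent cells in a naive state that resembles the preimplantation epiblast. After withdrawal the cells lose naive factors, pass through a formative state marked by Otx2, Fgf5 and de novo DNA methyltransferases, and then become responsive to lineage signals. Nodal, Wnt, BMP, FGF, Notch and retinoic acid are the main signals that pattern the early postimplantation epiblast.

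Pou5f1 (Oct4), which encodes the transcription factor required for pluripotency, had 205.4 and 139 FPKM at 48 and 60 h, and Sox2, its partner, had 46.7 and 35.1 FPKM. The markers of the formative state Otx2, with 88.4 and 46.7 FPKM, and Fgf5, with 37.3 and 19.8 FPKM, were also present at both timepoints. Several transcription factor genes that define committed lineages were low. Of a list of 30 primitive streak and mesendoderm genes only 4 reached 1 FPKM, and brachyury (T) had 0.0653 and 0.255 FPKM. The trophoblast factor Cdx2 was listed at 0 at both timepoints, and the extraembryonic endoderm factors Gata4, Gata6 and Sox17 were all under 1 FPKM. The forebrain gene Six3 was under 1 FPKM as well, though 14 of the 35 genes of the neurectoderm list reached 1 FPKM. Other genes of the same lists were well above this at 48 and 60 h, among them Krt18 of the trophoblast list, with 55.2 and 145 FPKM, Apoe and Sparc of the extraembryonic endoderm list, with 328 and 434 and with 93.8 and 89.9 FPKM, and Nes and Tubb3 of the neurectoderm list, with 16.1 and 15.2 and with 22.5 and 25.1 FPKM. The label of differentiating pluripotent cells is thus carried by Pou5f1, Sox2, Otx2 and Fgf5 at both timepoints. In bulk RNA, fewer cells of a type and less RNA per cell cannot be told apart.

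Between 48 and 60 h, 627 genes rose (4.97% of the 12610) and 538 genes fell (4.27%), and 11445 stayed within 2-fold. Among the genes that reached at least 10 FPKM, 98 of 6903 rose and 128 fell. The median log2 ratio of all members was -0.02, with 6046 genes above 0 and 6534 below. The 2-fold threshold was crossed by 15.4% of the genes between 1 and 2 FPKM upwards and by 13.1% downwards, and by 0.488% and 1.29% of the genes at 50 FPKM or more. Of the changed genes, 30 were listed at 0 at 1 of the timepoints, 14 of them among the risen and 16 among the fallen, and no fold is given for these. Just inside the threshold, Zcwpw1 had 8.64 and 17.3 FPKM and Rasgrp2 450.9 and 225 FPKM. Just outside it, Basp1 had 44.8 and 89.5 FPKM and Rpl36-ps3 16.1 and 8.04 FPKM. At the minimum level, Rasgef1b reached 1.0006 FPKM and was a member, and Slc16a14 reached 0.9997 FPKM and was not.

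**Figure D1:**
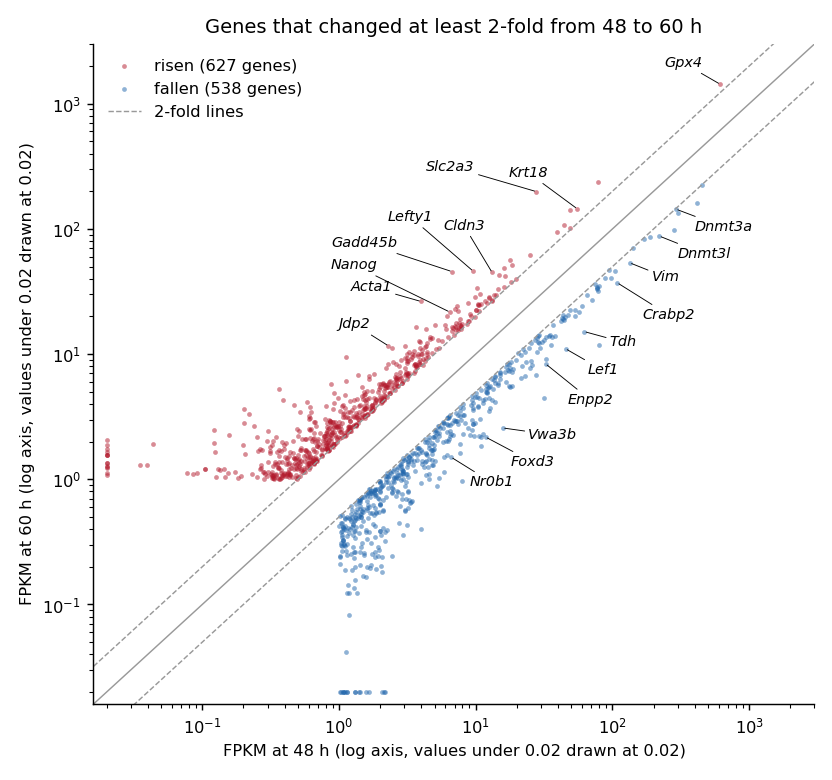
FPKM at 60 h against FPKM at 48 h for the 627 risen genes (red) and the 538 fallen genes (blue), on log axes with the line of equal values and the 2-fold lines. The genes farthest from the diagonal at 10 FPKM or more include Slc2a3 (27.7 to 199 FPKM) above it and Vwa3b (15.8 to 2.57 FPKM) below it.

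The split between rises and falls depends on how the values of the timepoints are put on 1 scale. The deposited values summed to 766067 and 686563 FPKM at 48 and 60 h. Used as deposited, 53.8% of the changed genes were risen. Scaling both timepoints to an equal sum adds 0.16 to every log2 ratio, moves the median log2 ratio of the members to 0.14, and gives 919 risen and 391 fallen genes, so that 70.2% of the changed genes were risen. Scaling by the median ratio gave 660 and 511, with 56.4% risen. Ribosomal protein genes, a list added after the values were seen, accounted for 44.1% of the drop in the sum, since their 84 members summed to 233552 and 198464 FPKM. Before the drop, at 48 h, 233552 of the summed 766067 FPKM already came from these 84 members. Of these, 82 had log2 ratios below 0, with a median of -0.21 as deposited and -0.05 after scaling to an equal sum, and only Rpl10l passed the threshold, from 79.3 to 34.8 FPKM. Many ribosomal protein genes have near-identical copies among which reads can be split, so their single values are uncertain.

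The interval was one of the more active ones after the first day. From 48 to 60 h 1165 genes changed (9.24% of the genes with at least 1 FPKM at either end), compared with 593 genes (4.79%) from 36 to 48 h and 662 genes (5.24%) from 60 to 72 h, all intervals of 12 h. From 24 to 36 h 1460 genes changed (11.7%). At 10 FPKM or more the shares were 4.44% from 24 to 36 h, 0.818% from 36 to 48 h, 3.27% from 48 to 60 h and 1.53% from 60 to 72 h, so the order was the same. The median absolute log2 ratio of these better measured genes was 0.20, 0.131, 0.227 and 0.207 over the same intervals. Neighbouring intervals share a timepoint, and a value at 48 or 60 h that is off would enter 2 intervals.

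**Figure D2:**
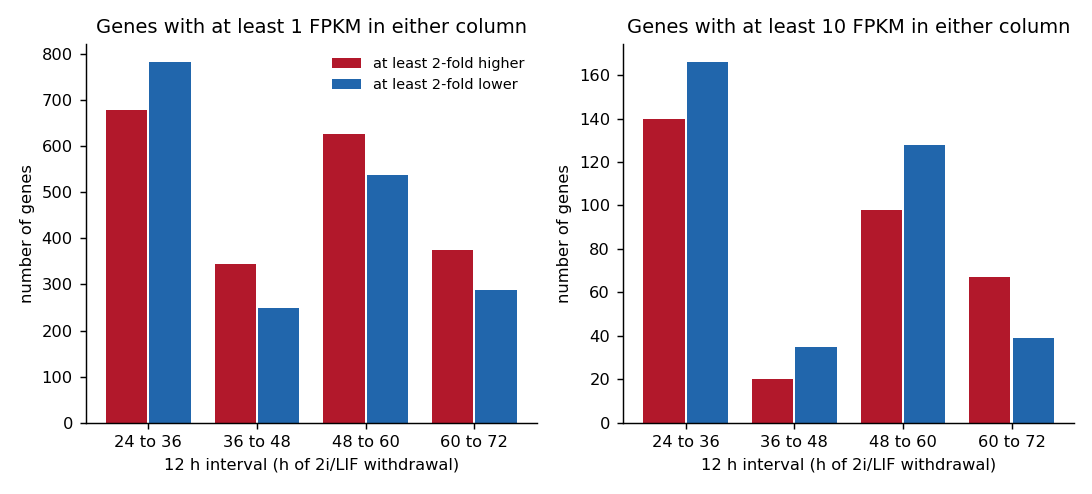
Number of genes at least 2-fold higher (red) or lower (blue) at the end of each 12 h interval of withdrawal, for genes with at least 1 FPKM (left) and at least 10 FPKM (right) at either end. From 48 to 60 h the bars stand at 627 and 538 genes on the left and at 98 and 128 on the right, above those of both neighbouring intervals.

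The direction of change was also read at timepoints that the comparison did not use. At 72 h, 428 of the 627 risen genes (68.3%) were at least 2-fold higher than at 36 h and 14 were at least 2-fold lower, where 12.4% of all members were higher. Of the 538 fallen genes, 330 (61.3%) were at least 2-fold lower at 72 h than at 36 h and 19 were higher, where 8.74% of all members were lower. At 10 FPKM or more, 80 of the 98 risen genes were higher and 0 lower, and 111 of the 128 fallen genes were lower and 1 higher, where 4.74% of all genes at this level were higher and 7.82% lower. The median log2 ratio of 72 h to 36 h was 1.87 for these risen genes, -2.02 for the fallen genes and -0.19 for all members at this level.

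Of the risen genes, 304 (48.5%) were highest at 96 h, the end of the course, and 74 (11.8%) before withdrawal, where 22.5% and 21% of all members were. Another 115 risen genes were highest at 60 h and 117 at 72 h. Of the fallen genes, 177 (32.9%) were highest at 24 h and 122 (22.7%) before withdrawal, where 17.3% and 21% of all members were, and 71 and 136 were highest at 36 and 48 h. These tallies include the 48 and 60 h values that chose the genes and are a description. At 10 FPKM or more, the median level of the risen genes was 11.6, 6.12, 7.71, 19.5 and 28.7 FPKM at 0, 24, 48, 60 and 96 h. That of the fallen genes was 22.5, 34.4, 23.9, 8.74 and 5.06 FPKM. In a comparison added after the values were seen, 202 of the 627 risen genes (32.2%) were at least 2-fold lower at 36 h than at 0 h and 63 (10.0%) were higher. Of the fallen genes, 159 (29.6%) were higher at 36 h and 118 (21.9%) lower. Among all members 11.0% were higher and 11.5% lower. At 10 FPKM or more, 34 of the 98 risen genes (34.7%) were lower at 36 h than at 0 h and 19 (19.4%) higher. Of the 128 fallen genes at this level, 50 (39.1%) were higher and 17 (13.3%) lower, where 9.75% of all genes were higher and 4.94% lower. At this level both sets thus had more than the background share in each direction.

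**Figure D3:**
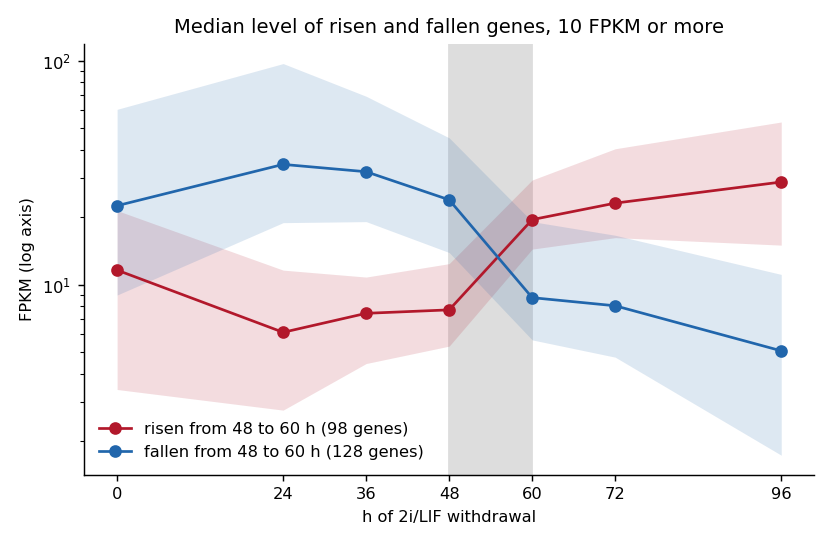
Median FPKM (points and lines, log axis) and quartiles (shaded) at the 7 timepoints of withdrawal for the 98 genes that rose and the 128 genes that fell from 48 to 60 h and reached 10 FPKM. The 48 to 60 h interval is shaded grey, and the medians go from 7.71 and 23.9 FPKM to 19.5 and 8.74 FPKM. The values at 48 and 60 h chose the genes, so the crossing of the medians there is set by the selection.

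Among genes that reached 10 FPKM, the largest rise was in Slc2a3, the neuronal-type glucose transporter Glut3, which lies on chromosome 6 (mm10) from 122727809 to 122801640. It had 338 FPKM before withdrawal, 24.9 at 36 h and 27.7 at 48 h, then 199, 404 and 889.5 FPKM at 60, 72 and 96 h, a 7.16-fold rise over the interval. The next gene was Gadd45b, a stress-induced growth arrest gene, with 24.7, 6.69, 45.6 and 117 FPKM at 0, 48, 60 and 96 h. Both were thus high before withdrawal, lost, and regained from 60 h on. Acta1, skeletal muscle actin, had 0.457 FPKM at 0 h and 3.97, 26.3 and 100.5 FPKM at 48, 60 and 96 h, and so was low before withdrawal. The others of the 12 were Jdp2, an AP-1 repressor (2.30 to 11.6 FPKM), the Nodal antagonist Lefty1 (9.56 to 46.1), Greb1l (2.43 to 11.2), 1700108F19Rik (3.64 to 16.6), 2610020H08Rik (3.01 to 11.6), Fgfbp1, which releases FGFs from the matrix (4.36 to 15.9), the tight junction gene Cldn3 (13.2 to 44.9), the meiotic cohesin gene Rec8 (5.04 to 17.0) and Nanog (6.45 to 21.7). 1700108F19Rik was not kept, with 7.63 FPKM at 72 h and 1.42 at 96 h.

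The sequences before the start sites of Acta1 and Gadd45b are shown because they are the genes with the largest rises after Slc2a3. Both hold the letters TATAAA, and only that of Acta1 holds the other motif marked here. They come from RefSeq on GRCm38.p6 (mm10) and end where the annotated gene begins or before. Capitals mark TATAAA on the gene's strand and, for Acta1, a CArG box, the site of serum response factor, which is CC, then any run of A and T 6 letters long, then GG and reads as a CArG box on both strands. The motifs planned held this box only in exact forms, and the open pattern marked here was not among them. Acta1 lies on the minus strand and its stretch is chr8:123894776-123895025. Gadd45b lies on the plus strand, at chr10:80929841-80930072.
Acta1: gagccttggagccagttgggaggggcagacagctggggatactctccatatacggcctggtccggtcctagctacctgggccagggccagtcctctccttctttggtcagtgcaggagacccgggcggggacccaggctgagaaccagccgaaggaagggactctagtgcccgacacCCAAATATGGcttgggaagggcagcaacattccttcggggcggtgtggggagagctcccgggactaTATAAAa
Gadd45b: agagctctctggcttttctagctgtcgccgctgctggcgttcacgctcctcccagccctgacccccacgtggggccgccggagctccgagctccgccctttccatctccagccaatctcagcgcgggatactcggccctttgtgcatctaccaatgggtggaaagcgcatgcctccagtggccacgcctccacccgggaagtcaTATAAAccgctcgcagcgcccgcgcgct
The CArG box of Acta1 begins 73 bases before the RefSeq start. TATAAA begins 7 bases before the RefSeq start in Acta1 and 46 bases before it in Gadd45b. The Gadd45b stretch has 232 bases and stops where the annotated gene begins, ahead of the RefSeq start. The 46 bases are therefore not the distance to the end of the stretch shown. Of 9310 promoters of members, 107 (1.15%) hold a CArG box within 250 bases, and 123 (1.32%) hold TATAAA in the last 50 of them. A match is a description of these letters only. Promoters were found for 78.4% of the members but only 71.6% of the risen and 67.1% of the fallen genes, older symbols included. A comparison of promoter features between the sets is therefore void and was not made.

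The largest fall was in Gm26870 (31.7 to 4.44 FPKM), followed by Gm10800 (80.2 to 11.7), both predicted genes whose values are uncertain because near-identical sequence occurs elsewhere in the genome. They moved together over the whole course, with 42.0 and 68.5 FPKM at 96 h. Among named coding genes, Vwa3b fell from 15.8 to 2.57 FPKM, Foxd3, a transcription factor of the epiblast and later of the neural crest, from 11.8 to 2.17, Aoah, a lipopolysaccharide-inactivating lipase, from 11.4 to 2.31, and Glod5 from 10.6 to 2.2. Lef1, a DNA-binding partner of beta-catenin, fell from 45.5 to 11.0 FPKM, Tdh, the threonine dehydrogenase that mouse pluripotent cells depend on, from 62.3 to 15.1, and Enpp2 (autotaxin), which makes lysophosphatidic acid, from 32.5 to 8.34. The long noncoding 4930591A17Rik (10.9 to 1.83), Gm12688 (10.9 to 2.17) and the gene entered under the date-like symbol 1-Sep (27.6 to 6.79) complete the 12. Enpp2 had 0.652 FPKM at 0 h, 42.3 at 36 h and 0.756 at 96 h, whereas Tdh was lower at each later timepoint, from 301 FPKM at 0 h to 1.99 at 96 h.

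Some of these genes are neighbours. Nanog, on chromosome 6 from 122707489 to 122714633 on the plus strand, ends 13176 bases from Slc2a3, which is on the minus strand, and both rose. Foxd3, on chromosome 4 from 99656299 to 99658622 on the plus strand, and Gm12688, from 99653607 to 99654983 on the minus strand, are 1316 bases apart, and both fell by a like amount. The keratin genes Krt8 and Krt18, on chromosome 15, are 23698 bases apart, and both rose. Whether the authors' counting used the strand is not stated, so reads from transcripts that overlap could not be told apart. Genes annotated as something other than protein-coding made up 12% of the risen and 18.8% of the fallen genes and 5.44% of all members. These shares were not matched for level, and genes with low values passed the threshold more often.

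In FPKM itself the largest rises were in genes that did not reach 2-fold, except for Gpx4, the glutathione peroxidase that protects from lipid peroxidation, which rose from 612 to 1432 FPKM and was back at 663 FPKM at 72 h. Ftl1, ferritin light chain, had 3400 and 4432 FPKM and kept increasing, to 6673 FPKM at 96 h. Hist1h2ao, Yam1 and Gm26917 were the others, and the histone gene has near-identical copies. The largest decreases included Rps28, Rps27, Rps18 and the prothymosin gene Ptma, with ratios from 0.760 for Rps18 to 0.845 for Rps27.

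Counts of list members given below stand beside 4.97% risen, 4.27% fallen and 90.8% within 2-fold among all members, so that 1 changed gene in a list of about 20 is close to the share over all genes. A list is said to have been measured in the genes that reached 1 FPKM at 48 or 60 h, and a gene low at 1 timepoint enters only through the other. Naive pluripotency genes were mostly lower at 60 h, with Nanog among the exceptions. Of 18 measured members of a 20-gene list, 7 fell and 1 rose, and 2 had log2 ratios above 0, with a median of -0.78 against -0.02 for all members. The nuclear receptor gene Nr0b1 fell from 6.61 to 1.5 FPKM and Tcl1, a coactivator of Akt, from 1.96 to 0.552. Klf5 fell from 16.7 to 6.01 FPKM and Klf4 from 3.25 to 1.52, and Nr5a2, which encodes a regulator of Pou5f1, from 1.25 to 0.566. Esrrb, with 12.8 and 7.17 FPKM, Zfp42 (Rex1), with 31.8 and 17.4, and Klf2, with 13.8 and 9.07, stayed within 2-fold. Nanog had been at 227 FPKM at 0 h, reached its lowest value of 6.45 FPKM at 48 h, and stood at 21.7, 38.9 and 14.5 FPKM at 60, 72 and 96 h. Its level at 72 h was 17.1% of that at 0 h. Gdf3 and Dppa3, which neighbour it, were at 25.7 and 10.9 FPKM at 60 h and did not rise.

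Of 15 genes of the core and general pluripotency list, 4 fell and 0 rose, with a median log2 ratio of -0.56. Beside Foxd3 these were Mycn (77.5 to 34.2 FPKM), Dppa2 (45.1 to 19.7) and the Nodal coreceptor gene Tdgf1 (47.3 to 20.6). Lin28a, an RNA-binding regulator of let-7, had 189 and 171 FPKM, and Utf1 634 and 499 FPKM. Among the reprogramming factors, Myc had 20.5 and 10.2 FPKM, which passed the threshold, as did Klf4. Dppa4, whose product binds that of Dppa2, had 123 and 86.6 FPKM.

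Of 19 measured formative genes 2 fell and 0 rose, both of the fallen ones de novo DNA methylation genes, and the median log2 ratio was -0.59. Dnmt3l, the catalytically inactive cofactor, fell from 221 to 87.5 FPKM, after its highest value of 542 FPKM at 24 h. Dnmt3a fell from 292 to 144 FPKM and Dnmt3b, the most abundant of the family, had 585.5 and 324 FPKM. Otx2 and Fgf5 stayed just within 2-fold. Of the 19 genes 4 had log2 ratios above 0, namely the zinc finger genes Zic2 (0.17) and Zic5 (0.24), Sox12 (0.22) and Tead2 (0.02). Of the 17 genes of the DNA methylation list, Gadd45g also fell (48.6 to 22.6 FPKM) while Gadd45a rose (16 to 34.1 FPKM) along with Gadd45b, so that the Gadd45 family was split. Tet1, which oxidizes methylcytosine, had 32.6 and 17.5 FPKM, and the maintenance gene Dnmt1 65.7 and 54.1 FPKM.

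**Figure D4:**
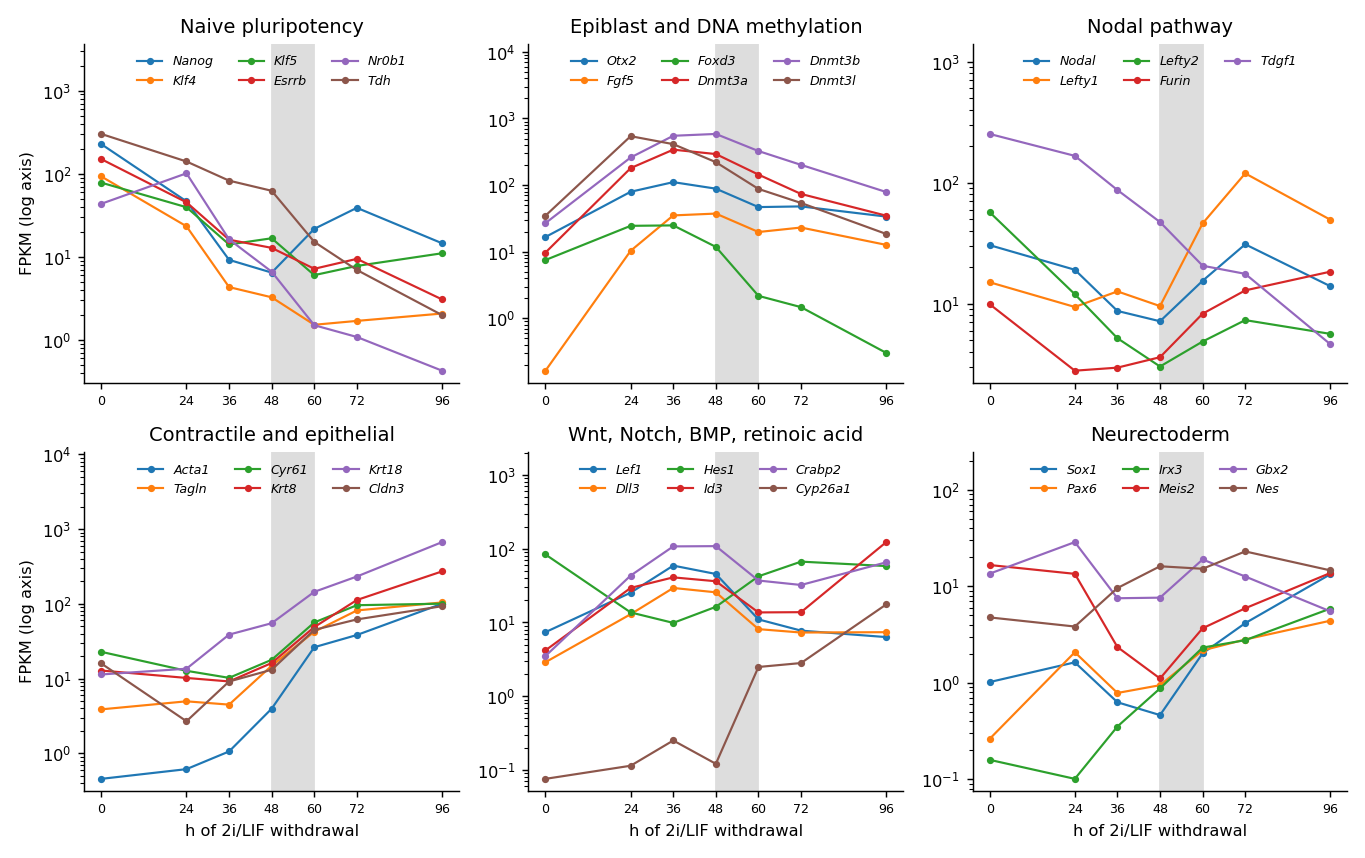
FPKM (log axis) of 35 genes at the 7 timepoints of withdrawal, 1 line per gene, in 6 panels by role, with the 48 to 60 h interval shaded grey. Each point is 1 value that combines both replicates. Among the genes drawn, Nanog, those of the Nodal pathway other than Tdgf1, and all 6 contractile and epithelial genes turn or continue upwards in the interval. The methyltransferase genes and Lef1 move down. Of 17 measured Nodal pathway genes 4 rose and 2 fell, and the fallen Fst is not drawn.

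The Nodal pathway list had members in both directions. Of 17 measured genes 4 rose and 2 fell, with a median log2 ratio of 0.18. The ligand Nodal rose from 7.16 to 15.5 FPKM and reached 30.9 FPKM at 72 h, the proprotein convertase gene Furin, whose product cleaves it, rose from 3.62 to 8.27, and the target and feedback inhibitor Lefty1 rose to 46.1 FPKM and reached 119 FPKM at 72 h. Lefty2, with 3.03 and 4.87 FPKM, did not pass the threshold. The members that fell are Tdgf1, the coreceptor, and Fst (5.89 to 1.15 FPKM), whose product follistatin sequesters activin.

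The other pathways had members in both directions, and none of these lists had more than 4 members past the threshold in either direction. Of 16 measured Wnt genes 1 rose and 3 fell: the ligand Wnt4 rose (0.367 to 1.22 FPKM), and Lef1, the secreted inhibitor Notum (1.84 to 0.344) and the ligand Wnt5b (1.78 to 0.618) fell, while the feedback target Axin2 had 1.96 and 2.53 FPKM. Of 13 BMP genes 2 rose and 1 fell. Bmp7 rose from 1.52 to 3.85 FPKM and the inhibitory Smad6 from 0.869 to 2.24, and the target Id3 fell from 36.3 to 13.7 FPKM before it reached 123 FPKM at 96 h. Id1, another BMP target, had 3.75 and 4.53 FPKM and so did not move with Id3.

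Among 23 FGF and ERK genes 3 rose and 4 fell. The receptor gene Fgfr2 rose from 12 to 25.6 FPKM, the ligand Fgf17 from 0.660 to 2.86, and Dusp5, which encodes a nuclear ERK phosphatase, from 6.06 to 15.9. The related ERK target genes Dusp4 (42.3 to 18.4), Spry4 (11.3 to 4.09), Etv1 (7.37 to 3.24) and Fosl1 (1.57 to 0.396) fell, whereas Dusp6, another such target, had 41.2 and 41.3 FPKM. Of 11 Notch genes 2 rose and 1 fell: the ligand-like Dll3 fell from 25.7 to 8.13 FPKM, the target Hes1 rose from 16.3 to 42.3, and Lfng, which modifies the receptor, rose from 2.01 to 4.62. Of 12 retinoic acid genes 3 rose and 1 fell. Cyp26a1, the degrading enzyme, rose from 0.121 to 2.49 FPKM and reached 17.6 FPKM at 96 h, Dhrs3, which lowers retinaldehyde, from 2.2 to 7.70, and Stra8 from 0.841 to 2.57, while the binding protein gene Crabp2 fell from 109 to 37.1 FPKM. Of 12 LIF and Stat3 genes 3 rose and 3 fell: the receptor gene Lifr (4.55 to 1.45 FPKM), Stat3 (12.8 to 5.58) and Klf4 fell, and Pim1 (24.9 to 62.0), Bcl3 (5.08 to 11.1) and Gbx2 (7.63 to 19.0) rose.

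Several genes of the actin cytoskeleton and of epithelial cells rose. Of 24 measured contractile and Yap or serum response factor target genes, 6 rose and 0 fell, 20 had log2 ratios above 0, and the median was 0.52, where 4.97% of all members rose. Acta1 led, Tagln (transgelin) rose from 14.9 to 42.5 FPKM, and the matricellular Yap targets Cyr61 and Ctgf rose from 17.9 to 56.5 and from 8.72 to 25.4. Synpo2l (1.21 to 4.19) and Lmod1 (0.516 to 1.72), which act on muscle actin filaments, rose too. Tpm1, with 192 and 326 FPKM, and Acta2, with 14.2 and 19.5, stayed within 2-fold. Of 23 epithelial and mesenchymal genes 3 rose and 2 fell: Cldn3, Krt8 (16.2 to 48.9 FPKM) and Krt18 (55.2 to 145) rose, and Snai1 (2.62 to 1.03) and Vim, vimentin (134 to 53.5), fell. E-cadherin (Cdh1), with 178 and 161 FPKM, and Epcam, with 165 and 184, were high at both timepoints. The keratins went on to 272 and 670.3 FPKM at 96 h.

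Krt8 and Krt18 are also members of the trophoblast list, of which 3 of 12 measured genes rose and 1 fell, with a median log2 ratio of 0.66, and of 1.40 for the 4 members with at least 5 FPKM. The other risen gene was Tfap2c (2.16 to 5.71 FPKM), which germ cells and naive cells also express, and the fallen gene was Ascl2 (4.81 to 1.3). Tfap2c and Krt19 (4.04 to 7.32) reached 5 FPKM only at 60 h, and Ascl2 at neither timepoint. The median of 1.40 is therefore partly set by the filter and does not show a larger rise in better measured members. Cdx2 was listed at 0, and Elf5, Gata3 and Hand1 were under 1 FPKM at both timepoints.

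Of the 35 neurectoderm genes 14 were measured, 5 rose and 0 fell, with a median log2 ratio of 0.24 that turned to -0.04 for members with at least 5 FPKM. Of the 5 rises, 4 lay between 2 and 5 FPKM, where 9.64% of all genes rose. Sox1, the earliest marker of the neural plate, rose from 0.464 to 2.02 FPKM and had 13.3 FPKM at 96 h. Pax6 (0.946 to 2.17), Irx3 (0.876 to 2.32) and Meis2 (1.11 to 3.68) were at similarly low levels, and only Gbx2 exceeded 10 FPKM. Nes (nestin) had 16.1 and 15.2 FPKM. Of the 4 measured streak genes 2 fell, Snai1 and the ligand Apln (2.16 to 0.322), and of 10 extraembryonic endoderm genes 2 rose, Dab2 (3.66 to 8.22) and Cited1 (2.63 to 5.82). Of 16 germline genes only Stra8 rose. The guidance genes Epha7 (1.04 to 3.88), Sema3c (1.55 to 4.79), Sema3e (3.8 to 9.98) and Ntn1 (0.670 to 1.99) rose and Epha4 (1.07 to 0.418) fell, among 24 measured.

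**Figure D5:**
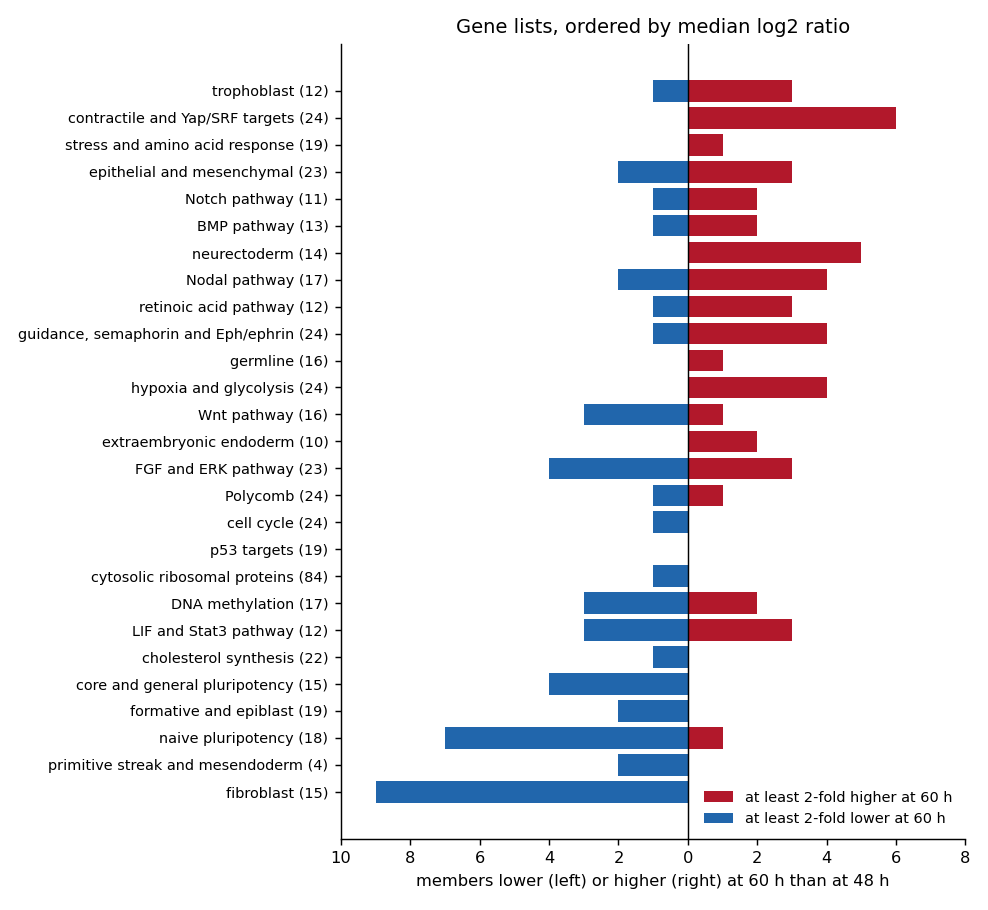
Number of members of each gene list at least 2-fold higher (red, right) or lower (blue, left) at 60 h than at 48 h, with the lists ordered by median log2 ratio and the number of measured members in brackets. The fibroblast list (9 lower, 0 higher) and the naive list (7 lower, 1 higher) have the most fallen members, and the contractile list (6 higher, 0 lower) has the most risen ones.

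The metabolic, stress and cell cycle lists are given beside the 90.8% of all members that stayed within 2-fold. Of 24 hypoxia and glycolysis genes 4 rose and 0 fell, and beside Slc2a3 they were Egln3 (7.22 to 16.5 FPKM), Adm (1.48 to 4.64) and Ndrg1 (1.67 to 3.65). The glycolytic Ldha went the other way, with 1147 and 718 FPKM, and Pgk1 had 207 and 169.8 FPKM, so the list did not move as one. Cholesterol synthesis genes decreased together by less than 2-fold: 21 of 22 had log2 ratios below 0, with a median of -0.56, and only Lss passed the threshold (27.0 to 12.9 FPKM). Of 19 p53 targets 0 changed, and Cdkn1a (p21) had 27.1 and 33.7 FPKM. Of 19 stress genes only Atf3 rose (2.46 to 5.67 FPKM). Of 24 cell cycle genes only Ccne2 fell (21.5 to 9.85 FPKM). Among 24 measured Polycomb genes Ezh1 rose (8.77 to 18.2 FPKM), while Ezh2, the main methyltransferase of the complex in dividing cells, had 69.6 and 65.1 FPKM.

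Fibroblast markers moved with the fallen genes. Of 15 measured genes of the 20 on the list, 9 fell, 0 rose and all 15 had log2 ratios below 0, with a median of -1.09. Of the fallen members, only Thy1 (17.7 to 7.68 FPKM) and Vim exceeded 10 FPKM at 48 h. Between 2 and 5 FPKM, 6.70% of all genes fell. Unlike the other fallen members, Thy1 was higher at 48 h than at 0 h, where it had 4.01 FPKM. Their summed level was 1631 FPKM before withdrawal, 252 and 131.7 FPKM at 48 and 60 h and 136 and 145 FPKM at 72 and 96 h, and vimentin alone made up 134 FPKM at 48 h. The collagen genes that define the cells were already low at 48 h, with Col1a1 at 5.00 and 2.2 FPKM, Col1a2 at 3.8 and 2.56 and Col3a1 at 2.96 and 1.47, and Lum was under 1 FPKM. The part of feeder cells in the falls of other genes was not tested.

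The study also re-seeded cells after 48 h of withdrawal into serum/LIF for 48 h, with or without dox to induce OSKM. These libraries are separate from those at 48 and 60 h. For the colony-forming assay the paper's methods place re-seeded cells on mouse embryonic fibroblasts. Whether the re-seeded cells for RNA-seq were on such feeders is not stated, and the part of feeder RNA in these libraries was not tested. Of the 627 risen genes, 115 (18.3%) were at least 2-fold lower with dox than without and 62 (9.89%) higher, against 4.82% and 5.18% of all members. Of the 538 fallen genes, 101 (18.8%) were higher with dox and 63 (11.7%) lower. At 10 FPKM or more, 21 of the 98 risen genes were lower with dox and 4 higher, and 35 of the 128 fallen genes were higher and 11 lower, where 2.04% of all genes at this level were lower and 2.62% higher. Most risen and fallen genes thus stayed within 2-fold between the dox states.

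Krt18 had 1268 FPKM without dox and 264 with dox, and Krt8 had 527 and 106. Slc2a3 had 1088 and 446 FPKM, and Lefty1 96.2 and 32.4 FPKM, so that these risen genes were lower with OSKM. Among the fallen genes, Tdh had 12.8 FPKM without and 87.5 with dox and Nr0b1 2.29 and 16.3. These genes were chosen after their values were seen.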

How the data were processed

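RNA-seq libraries of polyadenylated RNA from 15 conditions, 2 replicates each, were examined. Per the paper's methods and the submitters' processing notes, the authors mapped reads to mm10 with TopHat2 2.0.14 and used Cufflinks 2.2.1 on the Gencode M4 annotation, keeping transcripts from 200 bp upwards. Cuffdiff combined both replicates into the deposited FPKM values, 1 per gene and condition; its library normalization is not given in the sources used here. The 5 columns of the authors' own calls (groups of dynamic genes and of dox response) were not used. Values were used as deposited, with plain ratios and no pseudocount; genes at 0 at 1 timepoint were counted but given no ratio.

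The members, the 26 gene lists and the comparisons were chosen with earlier results of these data known. Genes named are the 12 largest ratios in each direction at 10 FPKM or more, the 5 largest FPKM differences in each direction, up to 4 risen and 4 fallen members per list at 2 FPKM or more, the genes whose expression the study names, and key list members whether changed or not. Other genes, including members of a list below 2 FPKM, Gdf3, Dppa3, Zcwpw1, Basp1, Rasgrp2, Rpl36-ps3, Rasgef1b and Slc16a14, were chosen after their values were seen. A few genes that the rule names are not reported here. Positions were taken from the Gencode M21 annotation of mm10 (1 position for 94.7% of symbols) and promoters from RefSeq on GRCm38.p6. The table has 27 date-like symbols, left as they are. Python 3.11.15, numpy 2.4.6, pandas 2.3.3 and matplotlib 3.10.9 were used, and the ratio and count steps were tested on simulated data. Alternatives were tried for the minimum level, the fold, a pseudocount, the scaling and the timepoints compared. With combined values no replicate error, test or depth could be had.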

Additional observations from a re-analysis of the deposited data

How the results depend on the processing

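No paired analysis was possible because the table holds 1 combined value per condition, and for the same reason no replicate could be left out. The numbers of risen and fallen genes depended mainly on the low values. They were 314 and 295 with at least 1 FPKM at both timepoints, 195 and 204 with at least 5 FPKM at either, 98 and 128 with at least 10 FPKM, and 2588 and 2427 without a minimum. A 1.5-fold threshold gave 1593 and 1272, a 3-fold threshold 212 and 199, and adding 1 FPKM to both values 243 and 250. Adding 0.1 FPKM and scaling by the median ratio or to an equal sum left both counts within 1.5 times. Changed shares from 24 to 36, 36 to 48, 48 to 60 and 60 to 72 h were 6.0%, 1.27%, 4.44% and 1.92% at 5 FPKM or more, and 5.46%, 1.33%, 3.91% and 1.77% with 1 FPKM added, so their order was kept. The shares of risen and fallen genes with the same direction from 36 to 72 h stayed within 1.5 times in every alternative tried.

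The list medians that changed sign lay between -0.33 (LIF and Stat3) and 0.27 (BMP) as deposited. Most of these changes came when members under 5 FPKM were left out. With members at 5 FPKM or more, the median log2 ratio was -0.01 for BMP, -0.10 for Wnt, -0.41 for retinoic acid, 0.49 for LIF and Stat3, -0.04 for neurectoderm, 0.22 for extraembryonic endoderm, -0.17 for germline, -0.04 for hypoxia and glycolysis and -0.00 for guidance genes. The trophoblast median moved from 0.66 to 1.40, partly because some risen members reached 5 FPKM only at 60 h while the fallen Ascl2 did not reach it. After scaling to an equal sum the median log2 ratio was 0.07 for FGF and ERK, 0.10 for extraembryonic endoderm and 0.01 for Polycomb genes. The medians of the naive, core, formative, fibroblast, cholesterol, contractile, Nodal and Notch lists kept their sign in every alternative. Beyond the levels themselves, the depth that limits the low values is unknown.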
